A study of Gallus gallus with 8 samples.

Results

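The left atrium and the apex of the ventricle of the embryonic chick heart were compared by RNA sequencing, with 1 library of pooled tissue from each. These were 2 of the 8 libraries of the study, and the deposited tables list the same 17778 genes for both. The atrium was sampled on its left side only, and the ventricle, which its label calls common, at its apex. No embryo age or stage was given for either pool, no genetic change or drug was given for any embryo, and the number of embryos in a pool was not given. A pool from the sinoatrial node and a pool from the atrioventricular junction at Hamburger-Hamilton stages 17 to 18 serve below as context. The remaining 4 libraries, from lateral plate mesoderm at stage 8, entered only the scaling.

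The atrium receives blood from the veins and the ventricle pumps it out, and the working muscle of each carries its own set of myosins, ion channels, calcium pumps and transcription factors. Chamber identity is set early by transcription factors such as NR2F2 in the atrium and HEY2 in the ventricle. Around the muscle lie the endocardium, a loose matrix and an outer epicardium, and blood fills the lumen, so a dissected piece of chamber holds RNA of all of these.

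The atrial library held 17189803 counts and the ventricular library 10258697, the highest and the lowest total of the 8 libraries. Levels are CPM, counts relative to the library's total, after scaling between libraries, and 1 read was worth 0.0686 CPM in the atrium and 0.109 CPM in the ventricle. A gene was expressed if it reached 5 CPM in either library. It was called higher on one side if its ratio, computed on CPM + 1, was at least 2-fold and the exact 95% interval of the ratio of its counts excluded 1. Folds below are ratios of CPM with that interval in brackets. With 1 library a side there is no replicate check and no p-value, the intervals cover counting error only, and a call compares these libraries. Chamber cannot be told apart from stage, or from body side, in this pair. In whole tissue, fewer cells of a type and less RNA per cell cannot be told apart either.

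Of 9441 expressed genes, 406 (4.30%) were called for the atrium and 292 (3.09%) for the ventricle. Most genes were close in level, and 7459 of those expressed differed by no more than 1.5-fold. Differences of at least 4-fold were called for 73 genes in the atrium and 38 in the ventricle. The median log2 ratio of all expressed genes was -0.03. A symbol could be given to 222 of the atrial and 169 of the ventricular genes.

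**Figure D1:**
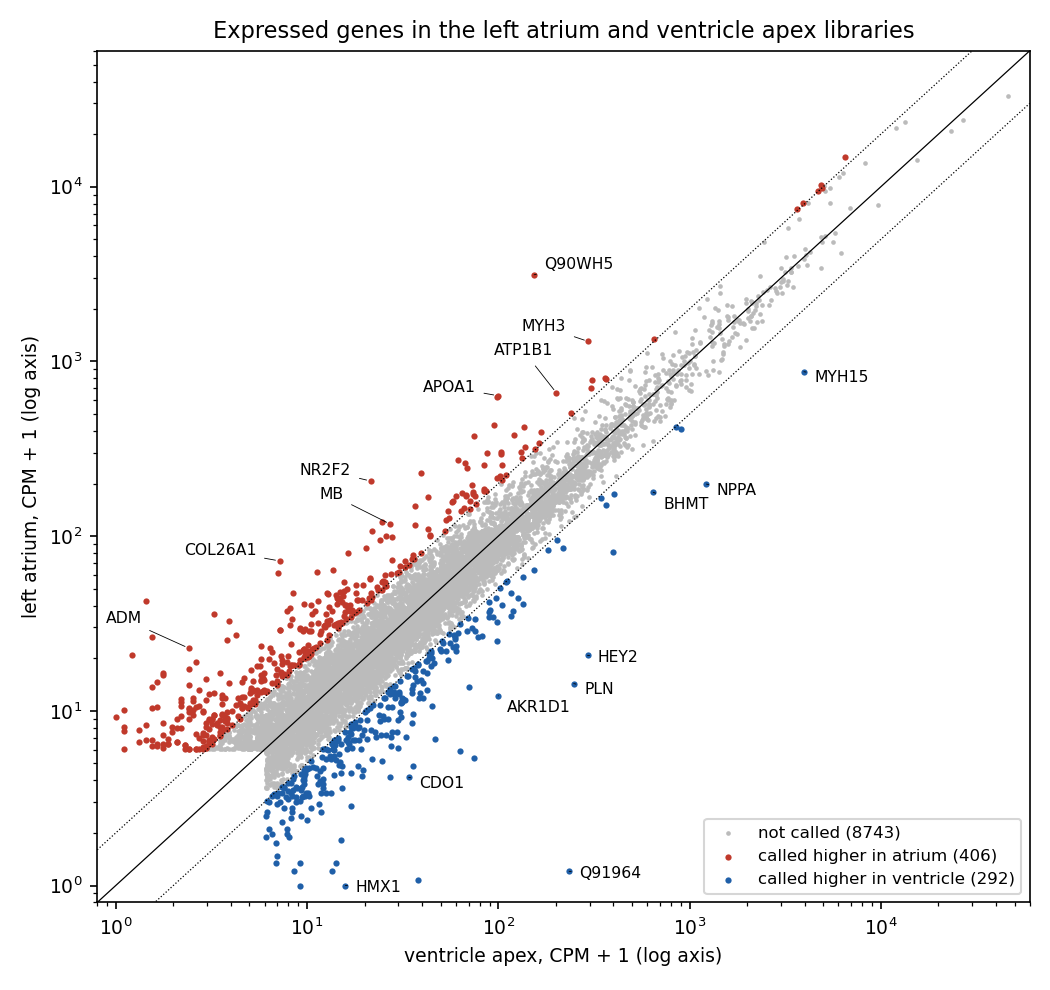
Level of each expressed gene in the atrium (vertical) and ventricle (horizontal), CPM + 1 on log axes, with the diagonal of equal level and dotted lines at 2-fold. The 406 red points were called higher in the atrium and the 292 blue points higher in the ventricle, with Q90WH5 and MYH15 far from the diagonal at high level.

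Both libraries carried the genes of heart muscle. TNNT2, the troponin that anchors the complex to tropomyosin, reached 7583 CPM in the atrium against 6901 in the ventricle, and TNNC1, the calcium-binding troponin, at 5127 and 4839. ACTC1, cardiac actin, was at 7809 and 9614, and MYBPC3, a myosin-binding protein, at 1345 and 1469. NKX2-5, a heart transcription factor, differed most of the 5 muscle markers found by name, at 1123 and 594 CPM, 1.89-fold (1.83 to 1.95). None of the 5 was called, and none was at 0. Summed over endothelial markers (3 of 5 found), the level was 90.3 CPM in the atrium against 148 in the ventricle. Both red cell markers that were found were called for the atrium. Epicardial markers summed to 18.1 and 25.3 CPM and smooth muscle markers to 33.5 and 80.9, of which TAGLN was called for the ventricle. Neural, liver and leukocyte markers were near or at 0, with SOX10 and FGA at 0 counts in both libraries, apart from EPCAM at 17.7 and 10.4 CPM and the leukocyte gene LAPTM5, called for the ventricle, at 2.88 and 7.27.

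Among contractile genes, the myosin heavy chains, the motor proteins of the thick filament, differed between the chambers in both directions. MYH15, the ventricular myosin heavy chain of birds, reached 872 CPM in the atrium against 3958 in the ventricle, with 2863 in the node and 4944 in the junction. The ventricle exceeded the atrium 4.54-fold (4.45 to 4.63), and the atrium was the lowest of the 4 heart libraries. The reverse held for 7 neighbouring rows on chromosome 18 between positions 308297 and 612846, all on the minus strand and all called higher in the atrium. The table names MYH13, MYH3 and MYSS among them, and in mammals MYH3 is the embryonic and MYH13 the eye muscle heavy chain. Together these rows held 2809 CPM in the atrium, 646 in the ventricle, 1724 in the node and 1252 in the junction, a ratio of 4.35 (4.23 to 4.47) of atrium over ventricle. Their single ratios lay between 3.36-fold and 5.09-fold. Myosin heavy chain genes resemble each other closely, so the split of reads among these rows is uncertain and the 7 ratios are not independent. Whether reads of heavy chain genes outside the run were counted in these rows was not tested. The atrial myosin heavy chain AMHC1 found no match by name and is not analysed here.

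**Figure D2:**
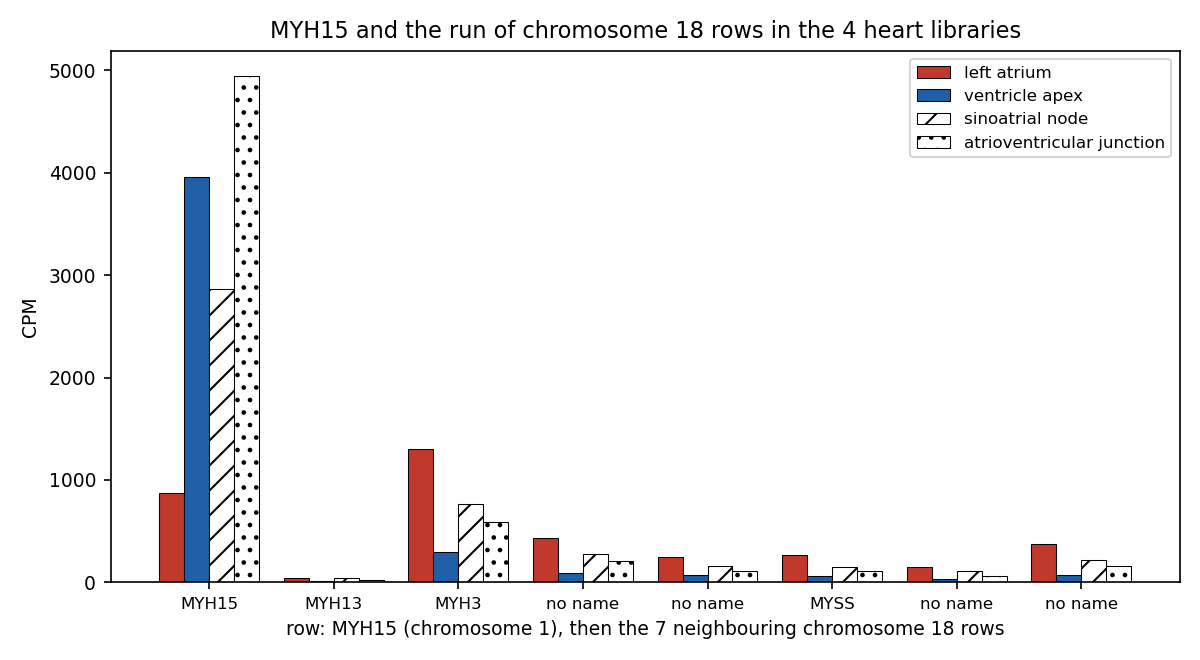
CPM in the 4 heart libraries of MYH15 and of 7 neighbouring chromosome 18 rows, where a row without a name in the tables is marked as such; 1 library per bar, so no error bar. MYH15 is lowest in the atrium at 872 CPM, and the chromosome 18 rows are highest there, led by MYH3.

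Large differences were also found in rows without a name in the tables, of which 1 on each side was singled out after its values were seen. The row listed only as the protein entry Q90WH5, at positions 489 to 20455 of chromosome 19 on the plus strand, was at 3131 CPM in the atrium, 153 in the ventricle, 1362 in the node and 1025 in the junction. It was thus 20.5-fold (19.4 to 21.6) higher in the atrium than in the ventricle. The ventricular counterpart was Q91964, on chromosome 4 from 84410096 to 84413010 on the minus strand, with 3 counts in the atrium against 2152 in the ventricle. This was 0.206 against 233.5 CPM, a ratio of 1134 (388 to 5504) towards the ventricle. It lies beside HMX1, a homeobox transcription factor gene, which had 0 counts in the atrium and 14.9 CPM in the ventricle, at least 57.9-fold by the exact interval and 72.2-fold against a floor of 3 counts. In the node Q91964 was at 0.0718 CPM and in the junction at 14.4. Both rows belong to a run of 4 neighbouring expressed genes called higher in the ventricle that starts with CPZ, a carboxypeptidase that binds Wnt proteins, at 11.6 and 34.2 CPM. The last row of the run overlaps HMX1 on the other strand, and since the use of strand in counting is not given, reads of those rows cannot be told apart.

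Beyond the myosins, sarcomere genes were also called, in short lists. Over all expressed genes 4.30% were called for the atrium and 3.09% for the ventricle. Of 13 expressed thin filament genes 1 was called, ACTA2, smooth muscle actin, at 303 CPM in the atrium against 131 in the ventricle. It reached 773 CPM in the node. In the thick filament list 1 of 8 was called, the myosin light chain kinase MYLK, at 13.04 and 5.97 CPM. That call ended when libraries were scaled by total count. The Z disc and the membrane complexes attached to it had 3 of 20 members called for the atrium and 2 for the ventricle. SYNPO2, an actin-bundling protein of the Z disc, reached 12.2 CPM in the atrium against 1.74 in the ventricle, 7.04-fold (4.21 to 12.6). CSRP2, a LIM protein of smooth and early cardiac muscle, was at 32.7 and 7.38 CPM, 4.43-fold (3.43 to 5.80), and MYOZ1, a calcineurin-binding Z disc protein, at 19.6 and 6.29. On the ventricular side FHL2, a LIM protein, was at 80.5 and 397 CPM, and SGCD, delta-sarcoglycan of the membrane complex, at 10.8 and 39.2. SGCD was 3.64-fold (3.01 to 4.41) higher in the ventricle. MB, myoglobin, which stores oxygen in muscle, reached 116 CPM in the atrium against 26.3 in the ventricle, 4.42-fold (3.86 to 5.08). The node, at 9.70 CPM, and the junction, at 29.7, were both far below the atrium for this gene.

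Of 19 expressed calcium handling genes 4 were called for the atrium and 2 for the ventricle, beside 4.30% and 3.09% of all expressed genes. PLN, phospholamban, the small brake on the calcium pump of the sarcoplasmic reticulum, reached 13.3 CPM in the atrium against 247 in the ventricle, 18.5-fold (16.01 to 21.6), on chromosome 3 from 65581333 to 65581492 on the minus strand. The other regions divided in the same way, with 6.61 CPM in the node and 165 in the junction. The pump itself, ATP2A2, had 35681 and 13207 counts, a log2 ratio of 0.77 after scaling that did not reach the limit. ATP2A3, a pump of the same family that is found mainly outside muscle, was at 6.72 and 20.6 CPM, 3.07-fold (2.39 to 3.95) higher in the ventricle. ATP2B1, which pumps calcium out across the surface membrane, reached 85.0 CPM in the atrium against 19.4 in the ventricle, 4.38-fold (3.74 to 5.15). CACNA1D and CACNA1H, pore subunits of L-type and T-type calcium channels of the inflow region, were at 21.96 and 10.1 CPM in the atrium against 5.43 and 3.47 in the ventricle. CACNA2D2, an auxiliary channel subunit, was at 17.3 and 7.27 CPM. The main L-type pore subunit of the heart CACNA1C (38.3 and 34.4 CPM) and the release channel RYR2 (142 and 100.7) were not called. RCAN2, an inhibitor of calcineurin that was chosen after its values were seen, reached 84.7 CPM in the atrium against 217 in the ventricle.

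Among other carriers of current, the atrium held more of ATP1B1, the beta subunit of the sodium pump, at 658 against 200.4 CPM. This was 3.29-fold (3.13 to 3.46). KCNC4, a fast voltage-gated potassium channel, reached 46.1 CPM in the atrium against 7.49 in the ventricle, 6.16-fold (4.80 to 8.01), with 25.1 in the node and 33.4 in the junction. ABCC9, the regulatory subunit of the ATP-sensitive potassium channel of heart and vessel muscle, was 2.28-fold (1.999 to 2.61) higher in the ventricle, at 58.5 against 25.6 CPM. GJA1, the gap junction protein connexin 43, reached 18.2 CPM in the atrium against 41.6 in the ventricle, 2.29-fold (1.95 to 2.68). Of the conduction genes, CNTN2, a cell adhesion molecule that marks fast conduction tissue in mouse, was at 6.52 and 0.977 CPM. In all 5 of 10 expressed pacemaker and conduction genes were called for the atrium and 1, SMOC2, a matrix protein, for the ventricle. The background over all expressed genes was 4.30% for the atrium and 3.09% for the ventricle. Solute carriers were close to it, with 5 of 92 called for the atrium and 4 for the ventricle. Among the latter was the monocarboxylate carrier SLC16A7, at 15.4 and 41.4 CPM.

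Transcription factors beyond the usual chamber markers were also called. ZNF503, a zinc finger repressor, was at 45.4 and 11.8 CPM and ATOH8, a bHLH factor, at 10.5 and 1.95, both higher in the atrium. IRX5, an Iroquois factor that patterns potassium current across the mouse ventricle wall, reached 6.11 CPM in the atrium against 31.9 in the ventricle, 5.22-fold (4.11 to 6.70). It was at 0.575 CPM in the node and 14.7 in the junction. PRDM16, a zinc finger factor of compact ventricular muscle in mouse, was at 3.84 and 17.4 CPM, 4.52-fold (3.31 to 6.24), and at 19.9 in the junction. MAB21L2, a gene of eye and body wall development, had 12 and 129 counts, 17.0-fold (9.40 to 33.8), with 18.9 CPM in the junction. HOPX, a homeodomain protein that does not bind DNA, was at 2.40 and 6.08 CPM. The list of cardiac transcription factors had 4 of 22 members higher in the atrium, all T-box or GATA genes, and HOPX alone higher in the ventricle. Beside this and the next 2 lists, 4.30% and 3.09% of all expressed genes were called for atrium and ventricle. The ventricular list, some of whose members were chosen from earlier results of these libraries, had 7 of 14 called for the ventricle and none for the atrium. Log2 ratios were below 0 for 10 of the 14 and above 0 for 4. Among the latter were MYL2, at 8064 CPM in the atrium against 5432 in the ventricle, and TNNI1, at 2020 and 1360, neither called. The atrial and inflow list had 5 of 10 called for the atrium and 3 for the ventricle, the latter NPPA, CAV1 and SMYD2. SMYD2, a lysine methyltransferase of heart and skeletal muscle, was at 27.7 and 67.4 CPM. Lists overlap, and ADM, HEY1, CACNA1D, TBX3, BMP2, ACTA2, NPR3 and LOX each stand in several.

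**Figure D3:**
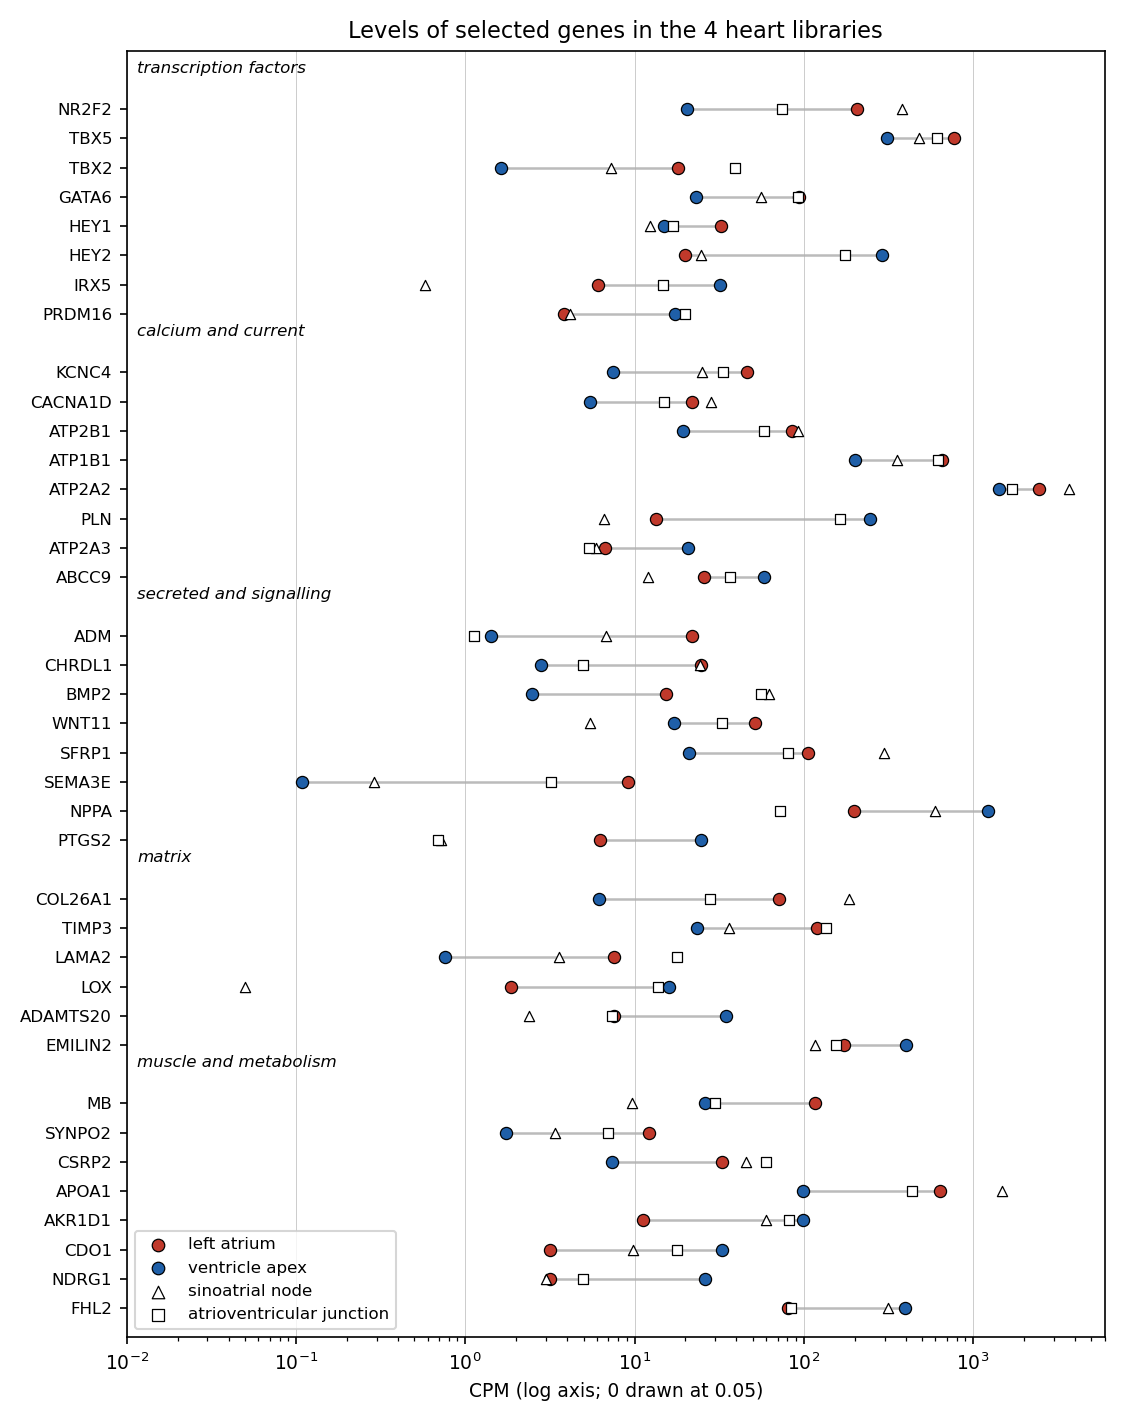
Levels of selected genes in the 4 heart libraries, CPM on a log axis, 1 library per symbol, with a grey line joining atrium (red) and ventricle (blue). Open symbols show the sinoatrial node and the atrioventricular junction, which for PLN sit on opposite sides, at 6.61 and 165 CPM.

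Of 13 expressed secreted hormones and their receptors 5 were called for the atrium and 3 for the ventricle. Over all expressed genes the shares were 4.30% and 3.09%, but the list was chosen with earlier results of these data known. ADM, the vasodilator adrenomedullin, was at 21.8 CPM in the atrium, 1.41 in the ventricle, 6.82 in the node and 1.13 in the junction. RAMP1, a subunit that fits a receptor to peptides of this family, reached 8.51 CPM in the atrium against 2.28 in the ventricle. NPR3, the receptor that clears natriuretic peptides from the blood, was at 30.5 and 9.55 CPM, 3.19-fold (2.53 to 4.06) higher in the atrium. The precursor NPPA went the other way, at 197 and 1224 CPM. CORIN, the protease that cuts this precursor in mammals, was named after its values were seen and reached 20.2 CPM in the atrium against 42.2 in the ventricle. The stanniocalcins, secreted glycoproteins, split by member. STC2 reached 297 CPM in the atrium against 86.2 in the ventricle, 3.45-fold (3.20 to 3.72), and STC1 at 9.74 and 21.2, 2.17-fold (1.74 to 2.71) higher in the ventricle. AGTR1, the receptor of angiotensin II, was at 0.892 and 5.10 CPM, a call that ended under 3 other scalings. PTGS2, the enzyme that starts prostaglandin synthesis, reached 6.24 CPM in the atrium against 24.8 in the ventricle, 3.98-fold (3.11 to 5.13), with 0.718 CPM in the node and 0.695 in the junction. HPGD, which breaks prostaglandins down and was chosen after its values were seen, was also higher in the ventricle, at 12.4 and 34.2 CPM.

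BMP and TGF-beta signals shape the inflow and the valve-forming canal. Of 22 expressed genes of this list 7 were called for the atrium and 2 for the ventricle. Over all expressed genes the shares were 4.30% and 3.09%. This list and the cushion and valve list below were chosen with earlier results of these data known. CHRDL1, a secreted antagonist that binds BMPs, reached 24.6 CPM in the atrium against 2.82 in the ventricle, 8.71-fold (5.84 to 13.5), with 24.4 in the node and 4.95 in the junction. The ligand BMP2 was at 15.4 and 2.50 CPM, and the inhibitory SMAD6, itself a target of BMP signals, at 186 and 83.5. Both were higher still in the node and the junction, BMP2 at 62.4 and 55.6 CPM and SMAD6 at 328 and 256. The ligand TGFB2 reached 44.3 CPM in the atrium against 14.4 in the ventricle, 3.07-fold (2.54 to 3.72), below the node at 113 and the junction at 182. Its receptor TGFBR2 had the opposite order, at 12.97 CPM in the atrium against 34.8 in the ventricle, 2.69-fold (2.24 to 3.23). The latent TGF-beta binding proteins split as well, with LTBP1 at 280.2 and 132 CPM and LTBP2 at 5.83 and 16.4. The call of LTBP1 ended under total count scaling. The genes of cushion and valve formation, several of them also counted above, had 8 of 18 called for the atrium and none for the ventricle. Among them PRRX1, a mesenchymal homeobox factor, was at 6.93 and 1.09 CPM, while VCAN, the versican of the cushion matrix, was at 105.5 and 106 and was not called. PRRX1 reached 23.2 CPM in the node and 32.7 in the junction. SOX9 was at 11.5 CPM in the atrium against 65.1 in the junction, and MSX2 at 10.9 against 83.8. Not all called members are given here with these levels, and an atrial call in this list is against the ventricle only.

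Wnt genes had 5 of 20 expressed ligands, receptors and effectors called for the atrium and 2 for the ventricle. The shares of all expressed genes were 4.30% and 3.09%. FZD7, a Wnt receptor, reached 420 CPM in the atrium against 136 in the ventricle, 3.10-fold (2.91 to 3.30), and its relative FZD6 at 32.9 and 68.3, 2.07-fold (1.84 to 2.34) towards the ventricle. GSK3B, a kinase that restrains beta-catenin, had 2448 and 683 counts, 2.27-fold (2.08 to 2.47) higher in the atrium. RSPO3, an amplifier of Wnt signals, was at 36.0 and 12.5 CPM, far below the node at 199.9 and the junction at 278. LGR5, a receptor of R-spondins, was at 4.94 and 11.8. The secreted antagonists SFRP1 and SFRP2 were called in opposite directions. SFRP1 reached 106 CPM in the atrium against 20.9 in the ventricle, 5.05-fold (4.35 to 5.90), while SFRP2 was at 13.4 and 39.3, 2.92-fold (2.45 to 3.49) higher in the ventricle. The retinoic acid, Hedgehog and Notch lists were short. CYP26B1, which degrades retinoic acid, was higher in the atrium at 37.7 and 7.16 CPM, the only call among 9 retinoic acid genes. PTCH1, the Hedgehog receptor and target, was higher in the ventricle at 2.95 and 10.6 CPM, the only call among 6. The Notch ligand DLL4 reached 2.20 CPM in the atrium against 6.73 in the ventricle.

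Guidance molecules were called in both directions, 5 of 36 for the atrium and 4 for the ventricle, beside 4.30% and 3.09% of all expressed genes. SEMA3E, a secreted semaphorin, had 133 counts in the atrium against 1 in the ventricle, 9.13 against 0.109 CPM, a ratio of 84.1 (14.8 to 3347). It was at 0.287 CPM in the node and 3.21 in the junction. PLXND1, its receptor on endothelium, reached 35.6 CPM in the atrium against 88.8 in the ventricle, 2.49-fold (2.23 to 2.79) higher in the ventricle. SEMA3C, a secreted semaphorin that steers neural crest cells in the mouse outflow tract, was at 9.33 and 0.543 CPM, 17.2-fold (7.19 to 53.8). SEMA5A was at 48.7 and 15.2 CPM and the ephrin receptor EPHA4 at 41.4 and 10.4, both higher in the atrium. EPHB3, an ephrin receptor of another class, was at 33.4 and 88.0 CPM, and DRAXIN, a repulsive cue, at 8.44 and 22.8, both higher in the ventricle. GFRA1, a receptor of the neurotrophic factor GDNF, reached 5.63 CPM in the atrium against 0.326 in the ventricle, with 3 counts on the ventricular side, 17.3-fold (5.71 to 85.5), and was not called under 2 of the 4 other scalings. Adhesion molecules had 3 of 28 called for the atrium and 4 for the ventricle. ALCAM, an immunoglobulin-type adhesion molecule, was at 176 and 63.4 CPM, 2.78-fold (2.54 to 3.05) higher in the atrium, and the integrin chain ITGA8 at 10.9 and 30.4, 2.78-fold (2.28 to 3.40) higher in the ventricle. NEFM, a neurofilament protein, reached 12.6 CPM in the atrium against 68.9 in the ventricle, 5.46-fold (4.62 to 6.47).

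Of 44 expressed matrix genes 5 were called for the atrium and 4 for the ventricle, beside 4.30% and 3.09% of all expressed genes. The atrial call of CRISPLD1, at 5.01 and 1.41 CPM, ended under 3 of the 4 other scalings. COL26A1, a short collagen, had the largest atrial ratio on the CPM + 1 scale among genes with a symbol at 10 CPM or more. It was at 71.1 CPM in the atrium, 6.18 in the ventricle, 186 in the node and 27.9 in the junction, 11.5-fold (8.80 to 15.3) over the ventricle, and lies on chromosome 19 from 3604542 to 3643414 on the plus strand. LAMA2, the laminin chain of muscle basement membrane, was at 7.55 and 0.760 CPM, 9.94-fold (4.66 to 25.3). COL6A3 was at 11.3 and 2.60 CPM, while COL6A1, another chain of the same collagen, was at 16.7 and 25.6 and was not called. LOX, the enzyme that cross-links collagen and elastin, reached 1.85 CPM in the atrium against 15.9 in the ventricle, 8.61-fold (5.68 to 13.5), with 13.7 in the junction and 0 counts in the node. NPNT, nephronectin, a ligand of integrins, was at 28.7 and 8.14 CPM. EMILIN2, a glycoprotein of elastic fibres, was at 173 and 402 CPM. The abundant fibronectin gene FN1, at 2460 and 3037 CPM, was not called.

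The proteases and inhibitors that turn the matrix over had more calls on the atrial side, 9 of 27, with 2 on the ventricular side. For comparison, 4.30% and 3.09% of all expressed genes were called, and members of this list were picked knowing earlier results of these data. Log2 ratios were above 0 for 16 members and below 0 for 11. The list's summed CPM leaned towards the ventricle instead (1757 atrial, 2028 ventricular). TIMP3, a metalloproteinase inhibitor bound to the matrix, reached 119 CPM in the atrium against 23.5 in the ventricle, 5.07-fold (4.404 to 5.87), with 36.1 in the node and 136 in the junction. SERPINE2, an inhibitor of thrombin and plasminogen activators, was at 294 and 102.9 CPM, and the membrane protease MMP24 at 13.4 and 2.93. The ADAMTS proteases split by member, with ADAMTS7 at 26.5 and 10.6 CPM and ADAMTS10 at 12.1 and 4.23, both higher in the atrium. ADAMTS20, which cleaves versican, reached 7.55 CPM in the atrium against 34.5 in the ventricle, 4.57-fold (3.67 to 5.73). CST3, the cysteine protease inhibitor cystatin C, was at 408 and 901 CPM, 2.21-fold (2.14 to 2.29) higher in the ventricle.

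Some genes of similar name were called in opposite directions. Grouped by the stem of the symbol, 37 families had at least 2 called members, and in 14 of them the members were called in opposite directions. Among these were the HEY, SFRP, STC, FZD, LTBP, SOX, ADAMTS and collagen genes. The call of HEY1 ended under total count scaling, and those of TLCD1, TLCD4, MYO1C and TMEM132D, on which other splits rest in part, under at least 1 other scaling. Of all calls 58.2% were for the atrium, so mixed directions within a stem are not by themselves a result about these families. Sharing a stem does not always mean common descent, as in the solute carriers.

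**Figure D4:**
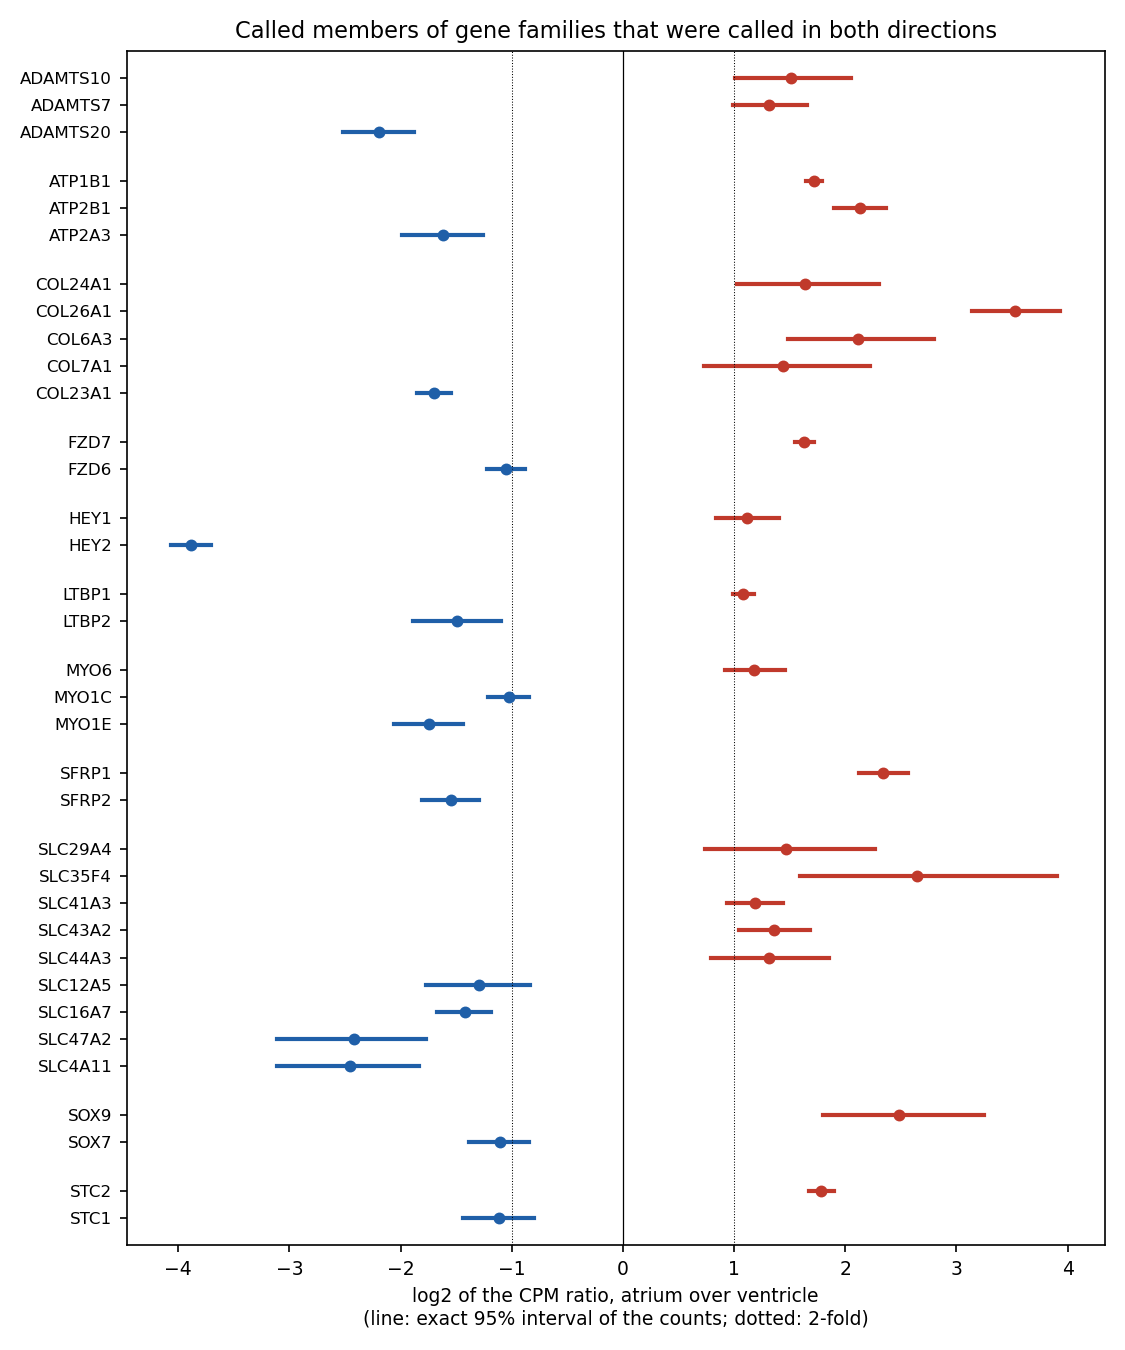
Called members of 11 of the 14 stems with calls in both directions, as log2 of the CPM ratio of atrium over ventricle, with the exact 95% interval of the counts as a line and 2-fold as dotted lines. HEY2 is the farthest to the left, and COL26A1 is the farthest to the right.

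Metabolic pathways had few calls. No member was called among 16 expressed glycolysis genes, 12 genes of fatty acid and creatine use, 14 of the TCA cycle, 42 of the nuclear respiratory chain or 31 cytosolic ribosomal proteins. Single enzymes stood out in the ventricle. AKR1D1, a steroid 5-beta-reductase, was at 11.2 CPM in the atrium, 98.96 in the ventricle, 59.7 in the node and 81.3 in the junction, 8.85-fold (7.48 to 10.5). CDO1, which oxidises cysteine on the way to taurine, was at 3.16 and 33.0 CPM, 10.5-fold (7.64 to 14.6). DMGDH, a mitochondrial enzyme that breaks down dimethylglycine, was at 8.03 and 25.6 CPM, 3.19-fold (2.54 to 4.02). The row next to it on chromosome Z, which the table lists as BHMT, the name of the enzyme that makes dimethylglycine from betaine, reached 177 CPM in the atrium against 644 in the ventricle, 3.64-fold (3.47 to 3.81), against 102.9 in the node and 34.7 in the junction. It was singled out after its values were seen and had no match in the reference. UPP1, which breaks down uridine, was at 6.59 and 28.4 CPM, and ASS1, an enzyme of arginine synthesis, at 2.61 and 11.2. In the hypoxia list 3 of 23 were called on each side, beside 4.30% (atrium) and 3.09% (ventricle) of all expressed genes. NDRG1, a stress-responsive gene, reached 3.16 CPM in the atrium against 26.1 in the ventricle, 8.28-fold (6.02 to 11.6), and VEGFA at 21.8 and 37.98 was not called. APOA1, the protein of high density lipoprotein, was higher in the atrium, at 635 and 98.4 CPM, 6.46-fold (6.03 to 6.92), with 1489 in the node and 436 in the junction, while ALB had 5 and 4 counts.

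The mitochondrial genome took a larger share of the scaled counts in the atrium, 15.7% against 11.9% in the ventricle. Its 13 protein rows together were at 1.83-fold (1.83 to 1.84) the ventricular level, and their single ratios ran from 1.66-fold to 2.05-fold. CYB, cytochrome b, was the only one of them called, at 8036 and 3914 CPM, and 4 of all 37 mitochondrial rows were. Under total count scaling the call of CYB ended, which left no protein row called and 1 of the 37. Most rows stayed inside the 2-fold limit. The nuclear genes of the respiratory chain had a median log2 ratio of 0.13.

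Genes listed for other cell types were called as well. Of all expressed genes 4.30% were called for the atrium and 3.09% for the ventricle. The erythroid list held 4.06% of the scaled counts in the atrium and 2.06% in the ventricle, with 7 of 18 members called for the atrium and none for the ventricle. Globin rows, close copies whose reads may be shared, had ratios of 1.97-fold to 2.28-fold, and calls of HBE, HBA1, HBZ and EPB42, a red cell membrane protein, ended under total count scaling. This left 3 of the 18 erythroid genes called, and HBZ was also lost under DESeq2 size factors, which left 6. The part of blood in the atrial calls was not tested. With the erythroid genes removed before scaling, 407 and 292 genes were called, of which 399 and 289 were among the main calls. That removal leaves any blood RNA in other genes in place and so cannot test this part. Of endothelial genes 6 of 21 were called for the ventricle and 2 for the atrium, with a median log2 ratio of -0.61. The 2 were ESAM, at 180 CPM in the atrium against 85.3 in the ventricle, and NPR3, at 30.5 and 9.55. The call of ESAM ended under total count scaling. ECSCR, a surface protein of endothelium, reached 33.9 CPM in the atrium against 116 in the ventricle, 3.41-fold (3.06 to 3.80), and MMRN2, an endothelial matrix protein, at 25.4 and 77.6. Outside that list, VEGFRKDRL, a VEGF receptor-like gene, was at 39.9 and 133 CPM, and CAV1, the coat protein of caveolae, at 10.8 and 37.5. PECAM1, TEK and TIE1, the 3 endothelial markers found, were also above the atrium in the ventricle but not called, with log2 ratios of -0.50, -0.89 and -0.62. Of smooth muscle and mesenchyme genes 4 of 15 were higher in the atrium, among them ACTA2, and TAGLN alone was higher in the ventricle, at 27.4 and 74.5 CPM. The median log2 ratio of this list was -0.40, with 10 of 15 members below 0, and the call of MYLK ended under total count scaling. For the leukocyte list 3 of 5 were higher in the ventricle, all below 8 CPM, and C1QA and C1QC were not called under 3 other scalings. The part of these cells in the other calls was not tested.

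**Figure D5:**
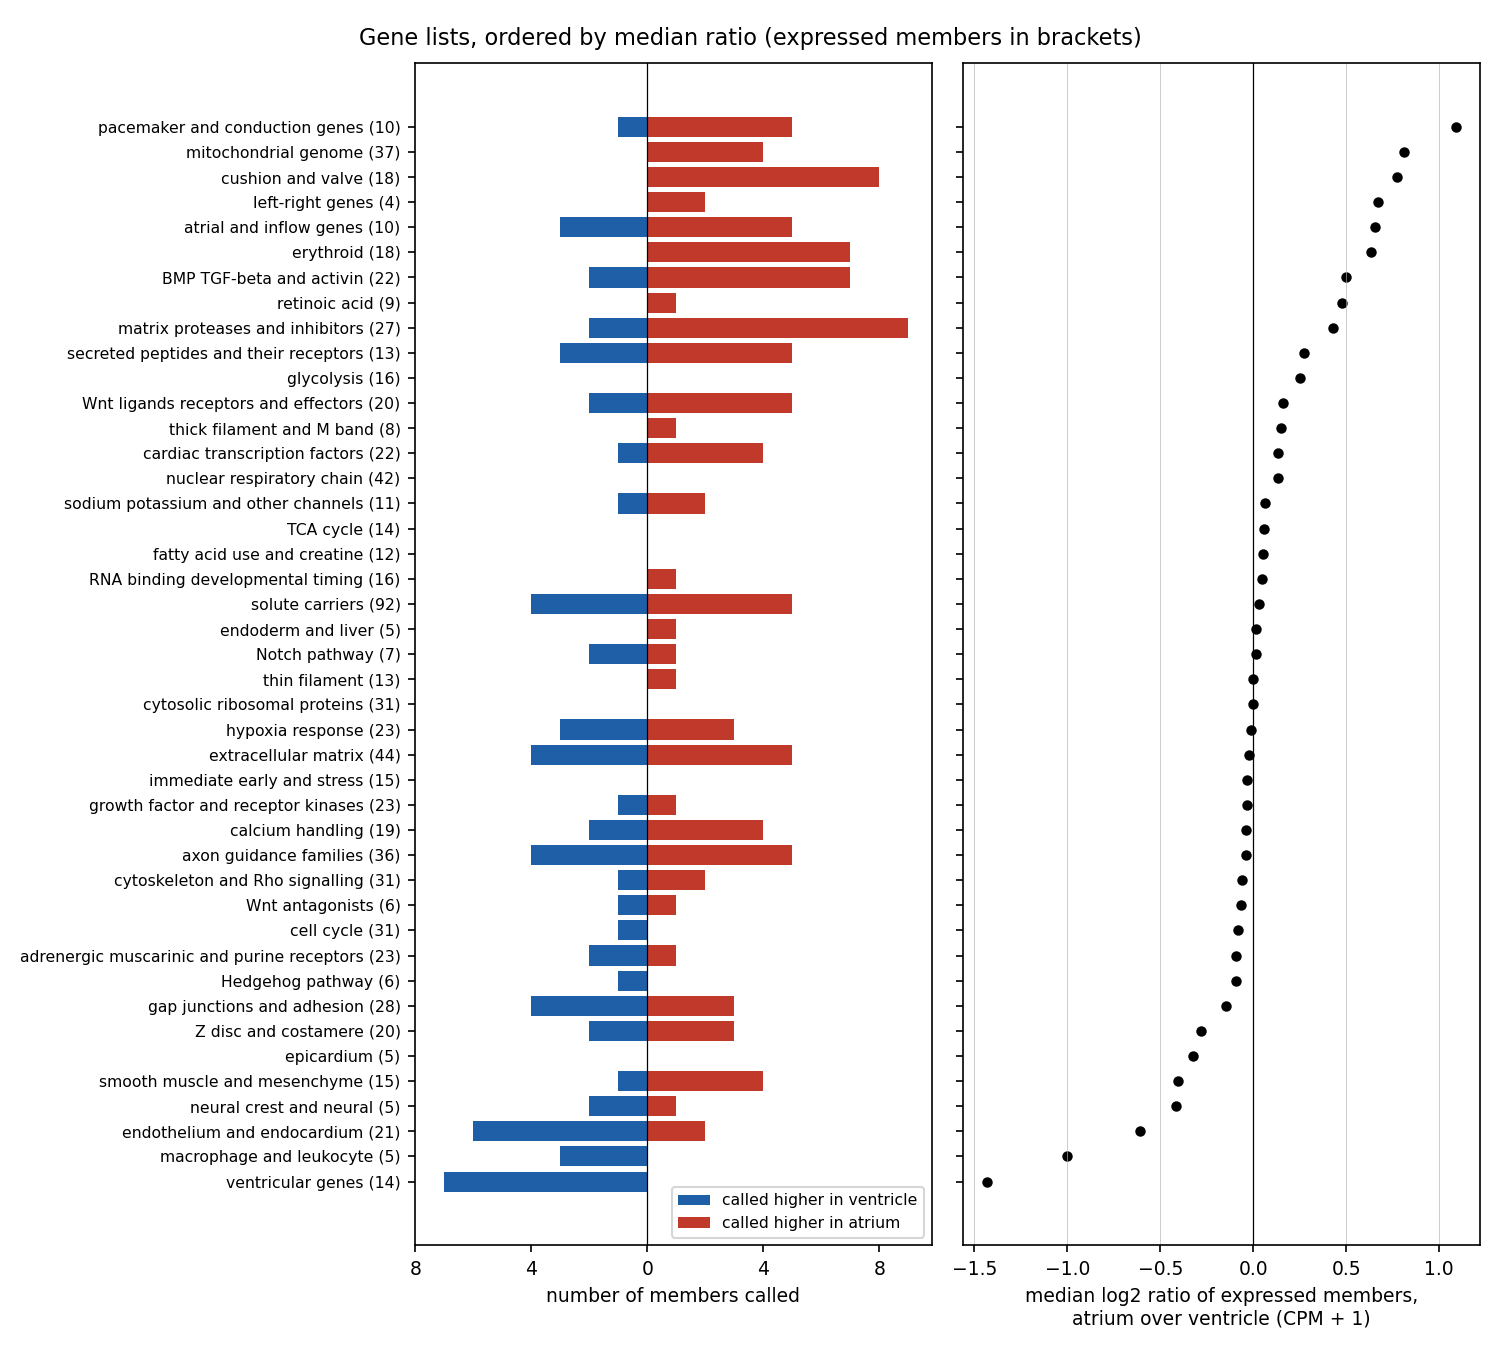
Number of members called in each direction (left) and median log2 ratio of expressed members (right) for every gene list with at least 4 expressed members. Pacemaker genes have a median of 1.09, which fell below that of cushion and valve genes under total count scaling (0.79 and 0.82) and both other TMM scalings, and ventricular genes lie at -1.43.

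Several atrial genes fell outside every list. GRIFIN, a galectin-related protein of the lens, reached 16.4 CPM in the atrium against 1.41 in the ventricle, 11.6-fold (6.67 to 22.2), with 2.37 in the node and 0 counts in the junction. RERG, a small Ras-like protein, was at 13.1 and 1.41 CPM. PMP22, a membrane protein known from myelin, was at 79.2 and 15.3 CPM, 5.18-fold (4.34 to 6.21). NAV3, a microtubule-binding protein, was at 39.5 CPM in the atrium, 9.44 in the ventricle, 10.6 in the node and 2.61 in the junction. Outside the lists on the ventricular side were KIF26B, a kinesin, at 31.1 and 97.1 CPM, NUAK1, a kinase, at 5.28 and 26.5, and COL23A1, a membrane collagen, at 36.5 and 118. FER1L5, a ferlin-type membrane protein, had 5 counts in the atrium against 121 in the ventricle, 38.3-fold (15.95 to 120.0).

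The node and the junction showed where the chamber differences lay among the 4 heart regions. Of the 406 atrial genes the ventricle was the lowest of the 4 libraries for 333, and the atrium was the highest for 185, the node for 106 and the junction for the others. Only 42 were at least 2-fold above all 3 other heart libraries in the atrium, computed on CPM + 1. Of the 292 ventricular genes the ventricle was the highest for 241, and 112 were at least 2-fold above all 3 others. The atrium was the lowest of the 4 libraries for 136 of the 292. By the calling rule the ventricle could not be highest for an atrial call or lowest for a ventricular call. The same shares over all expressed genes are not given here. These counts are descriptions, since the calls used the atrium and ventricle values themselves and the stages of the chambers and node were not given.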

How the data were processed

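Per the labels' protocols, embryos were dissected and pooled, and libraries of polyadenylated RNA were read as pairs of 36 bases. The submitters' processing notes name Bowtie and TopHat. Versions, genome build, annotation, counting program and strand use are not given in the sources used here. Read counts and CPM stand in 7 of the 8 deposited files, and the junction's holds CPM of 2 libraries; the authors' CPM are counts divided by the library's total, as the values show. Count columns were assigned to libraries by their header, and the posterior mesoderm's counts, used for scaling only, were recovered from CPM (100% whole within 0.01 of a read). Scaling used TMM over 8 libraries (edgeR 4.0.16, R 4.3.3), with factors of 0.848 for the atrium and 0.898 for the ventricle. Intervals are exact Clopper-Pearson, and the calling code was tested on simulated data. PCR copies are not independent molecules, so true intervals are wider. Coordinates are those of the deposited tables.

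Names were matched to a chicken RefSeq table (GRCg7b), used for names and neighbour order only, which gave 8459 of 17778 genes a symbol. An older or entry name needed at least 2 shared neighbours among 10 on either side, and MYH15 and HBA1 were matched after their counts were seen. The naming rule took the 40 largest ratios each way at 10 CPM or more, up to 6 called and the 3 highest members of each of 44 lists, the 10 highest genes of each library, the cell type markers, and all atrial, ventricular and left-right genes. Named outside it, after their values were seen, were ADAMTS7, BHMT, CACNA1C, COL6A1, CORIN, CPZ, CYB, HPGD, RCAN2, RYR2, VCAN, VEGFA, the histone and chromosome 18 rows and the unnamed rows. Members and lists were chosen with earlier results of these data known. Promoter motifs are not analysed here, nor are SHOX2, TBX18, IRX4, HAND1 and BMP10, which found no match by name. Scaling, pseudocount, minimum level, fold and interval were varied, with DESeq2 1.42.0 size factors among the scalings. Values of some other genes are left out of the text.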

Additional observations from a re-analysis of the deposited data

How the results depend on the processing

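No paired analysis was possible because each group is 1 library, and for the same reason no replicate could be left out. The main counts were 406 genes called for the atrium and 292 for the ventricle. Under total count scaling they were 301 and 307, so that the atrial share of calls went from 58.2% to 49.5%, and the median gene shifted by -0.08 on the log2 scale. TMM over the pair gave 378 and 271, TMM over the heart libraries 386 and 273, and DESeq2 size factors 396 and 296. Without erythroid genes 407 and 292 were called, and without mitochondrial genes 441 and 304. A 99% interval changed neither count. This is no separate check, since at 5 CPM or more a gene past the 2-fold limit has enough counts for either interval to exclude 1. Stricter or looser rules moved the counts by over 1.5 times, by their own construction: 212 and 149 with a pseudocount of 5 CPM, 209 and 144 with a minimum of 20 CPM, 1131 and 851 at 1.5-fold, and 73 and 38 at 4-fold. Of 176 named and called genes, 157 were called under all 4 other scalings and 19 were lost under total count. No named and called gene changed direction under any scaling or pseudocount. Depth limits genes of low level most, since 1 read weighs more there. Its part in the following shares of calls by level was not tested. Between 5 and 10 CPM 7.09% and 4.47% of genes were called, the highest share for the atrium and for the ventricle of all ranges of level. Between 50 and 100 CPM the shares were 2.32% and 2.19%. From 500 CPM up they were 5.0% and 1.47%, so the atrial share did not fall steadily with level. The list of macrophage and leukocyte genes had no member at 20 CPM and so no median there.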

Other observations

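Linker histone rows were called and core histone rows of the same stretch of chromosome 1 were not. The 5 rows that the tables name H1, H101, H110, H11L and H11R were all called higher in the atrium, 773 against 319 CPM in sum, 2.42-fold (2.33 to 2.52), with single ratios of 2.04-fold to 2.85-fold. The calls of H1 and H11L ended under total count scaling, and that of H11L also under DESeq2 size factors. The 11 rows named for H2A, H2B, H3 and H4 histones there had none called and summed to 415 and 457 CPM. These rows are close copies, most histone messages carry no poly(A) tail, and the rows were chosen after their values were seen. H1F0, listed as H5, the linker histone of bird red cells, had 138 CPM in the atrium against 62.8 in the ventricle.

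Calls were also counted by chromosome, with no test. On chromosomes 1 to 5 the shares were 3.95% called for the atrium and 3.90% for the ventricle, of 3995 expressed genes, with a median log2 ratio of -0.08. On chromosomes 11 to 28 they were 4.68% and 2.18% of 3032, with a median of 0.03. Single chromosomes of that group went the other way, such as 11 with 2.02% and 3.24% and 21 with 2.13% and 6.38%. On chromosome Z the shares were 3.05% and 4.82%. No row of chromosome W was called. Neighbouring expressed genes were both called for the atrium in 50 of 8917 adjacent pairs and both for the ventricle in 31, and 12 runs of at least 3 genes were seen. Overlapping rows and gene copies, such as the chromosome 18 run, add to these counts.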
